A study of Homo sapiens with 36 samples.

Results

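The first 5′ splice site of a gene is the boundary at which exon 1 ends and intron 1 begins. Of the 278185 RNA-binding clusters called in the series, 4731 (1.70%) covered such a boundary on the same strand with at least 1 nt on each side. The boundary was taken on GRCh38 from the isoform whose exons sum to the greatest length in each GENCODE 44 protein-coding gene, and 18720 of 20033 genes had an intron in that isoform. Genes that shared a boundary were joined, which left 18378 first 5′ splice sites, of which 1779 were covered in at least 1 of 18 cluster lists.

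The lists came from PAR-CLIP, in which 4-thiouridine (4SU) built into RNA is crosslinked to bound protein by 365 nm light and read as T-to-C changes. HEK293 Flp-in T-Rex is an established human embryonic kidney line with a single site for inserting a doxycycline-inducible transgene. Cells that carried FLAG-SCAF4 or FLAG-SCAF8, and cells of the untagged parental line, received 100 μM 4SU overnight, a further 500 μM for 2 h and then 2000 J/m2 of light. The labels give 100 ng/mL doxycycline overnight for the FLAG lines, while the methods give another dose and include the parental cells. All lines kept the endogenous SCAF4 and SCAF8 genes, so a tagged copy was studied beside the untagged one.

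FLAG immunoprecipitates (IP) and 1% inputs taken before the IP were sequenced in 3 biological replicates from a soluble and a chromatin fraction. The fractions were merged before clusters were called, so 36 libraries gave 18 lists and the fractions cannot be told apart here. SCAF4 IP lists held 18991, 54404 and 33962 clusters, SCAF8 IP lists 25189, 18287 and 41502, and lists of the IP from parental cells (control IP) 9638, 2314 and 1621. The 9 inputs held 4567 to 12493 clusters. Reads per library are not in the lists, so the depth in reads is unknown and the intervals below cover counting of clusters only.

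The 5′ splice site is recognised by base pairing with U1 small nuclear RNA while the transcript is still attached to RNA polymerase II, and U1 bound there also restrains cleavage at nearby polyadenylation sites. SCAF4 and SCAF8 are related proteins with an RNA recognition motif and a domain that binds the C-terminal tail of RNA polymerase II, and they suppress early polyadenylation. A cluster that reaches from exon 1 into intron 1 can hold RNA in which the first intron had not been removed at that site. It can also hold RNA of an isoform in which those bases are exon. Where it reaches only a few bases into the intron, it can hold ends of spliced reads laid there by the alignment, as described below.

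The boundaries below were covered in all 6 SCAF4 and SCAF8 IP lists and in no input or control IP list, and are shown as the sites seen most often in the IP alone. Each line gives 15 nt of exon 1 and 15 nt of intron 1 of GRCh38, 5′ to 3′ on the gene's strand, with the last 3 exon bases and the first 6 intron bases in capitals. ATF2, a bZIP transcription factor, lies at chr2:175168035-175168064 on the minus strand. MCM5, a subunit of the replicative helicase, lies at chr22:35410896-35410925 (plus). NUP155, a scaffold protein of the nuclear pore, lies at chr5:37370806-37370835 (minus). DHX15, a helicase that takes spliceosomes apart, lies at chr4:24537036-24537065 (minus). The isoforms used for MCM5 and DHX15 are annotated as non-coding, so their first exon need not be the first exon of the mRNA. ATP5F1C, a subunit of mitochondrial ATP synthase, lies at chr10:7788249-7788278 (plus), and CWF19L2 lies at chr11:107457697-107457726 (minus).
ATF2: tagtgacctggaAAGGTGAGTaacgatggg
MCM5: acacagatggctCTGGTGAGTtggctttgg
NUP155: tggtgtctgcccCAAGTGAGTgatagtgac
DHX15: atgcttttaaacAAAGTAAGTgtaaatttg
ATP5F1C: cttgcagccgcaATGGTATGGcagcttgcg
CWF19L2: gaggtgttgcgcCAGGTACCTctgttttgg

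The next set holds sites that were also covered in 8 or 9 of the 9 inputs, shown to set against the first. HNRNPH1, an RNA-binding protein that regulates splicing, lies at chr5:179618130-179618159 (minus). TUBA1B, an alpha-tubulin, lies at chr12:49129485-49129514 (minus), and CKS2, a regulatory subunit of cyclin-dependent kinases, at chr9:89311337-89311366 (plus).
HNRNPH1: gtgcttatggtgGAGGTACGTgaggattcg
TUBA1B: aacccacagtcaTTGGTGAGTtgacctcag
CKS2: acactacgagtaCCGGTGGGCgcctttctt

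The last set holds sites seen with 1 protein alone. NOP14, a factor of small ribosomal subunit assembly, at chr4:2963110-2963139 (minus) and YARS1, the tyrosyl-tRNA synthetase, at chr1:32817173-32817202 (minus) were covered in 3 of 3 SCAF4 IP lists and in no other list. ENSG00000269026/ZNF551, 2 genes that share a first boundary, at chr19:57682230-57682259 (plus), and the kinase gene CDKL3 at chr5:134366962-134366991 (minus) were covered in 3 of 3 SCAF8 IP lists and in no other.
NOP14: cgggccctcaggAAGGTAAGCggggggcgc
YARS1: acccggaacctgCAGGTCAGGcctgggggt
ZNF551: agggactcggctCAGGTGAGTtgtgcgtcc
CDKL3: tggggcgtgacgCCGGTCCGGcatcctaag

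Clusters over the first 5′ splice site made up a larger share of SCAF4 and SCAF8 IP lists than of their inputs or of the control IP. In SCAF4 IP they were 2.01%, 2.33% and 2.35% of clusters in replicates 1, 2 and 3, or 382, 1268 and 798 clusters. In SCAF8 IP they were 1.42%, 1.92% and 2.07%, or 357, 352 and 860 clusters. In the control IP they were 1.20%, 1.08% and 0.740%, which rested on 116, 25 and 12 clusters. The lowest share among the 6 IP lists of tagged protein, SCAF8 replicate 1 (95% exact binomial interval 1.27 to 1.57%), was above the highest of the control IP, control IP replicate 1, but the interval of the latter (1.00 to 1.44%) overlapped it.

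The inputs lay lower. SCAF4 inputs held 0.930%, 0.860% and 0.939%, SCAF8 inputs 0.514%, 0.859% and 0.955%, and inputs of the parental line 0.664%, 0.657% and 0.551%. No input reached a SCAF4 or SCAF8 IP list. Over the 6 IP lists the share was 2.02% ± 0.341 (SD, n = 6), and over the 6 inputs of the same lines 0.843% ± 0.166 (SD, n = 6). The difference of the mean log2 shares was 1.27, or 2.41-fold (two-sided exact permutation test over 6 against 6 lists, p = 0.00216). That is the smallest p when lists are permuted without pairing, and the Benjamini-Hochberg adjusted p was 0.00812 over the 15 tests of this report. Each input came from the extract of an IP, and exact sign flips over the 6 pairs gave p = 0.0313, the smallest for 6 pairs. This paired p was not adjusted, and all adjusted p values of this report come from the unpaired permutations. The permutation tests of IP lists against inputs below were unpaired too. Against the control IP the difference was 1.01, or 2.02-fold (exact permutation test, 6 against 3 lists, p = 0.0119, the smallest possible, adjusted p = 0.0223).

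Within a line the designs of 3 against 3 lists cannot go below an exact p of 0.1. SCAF4 IP stood 2.45-fold over its inputs and SCAF8 IP 2.38-fold over its own, with no overlap of lists in either (exact permutation p = 0.1 for each). The control IP was also higher than the inputs of the parental line, by 1.59-fold and again with no overlap (exact permutation p = 0.1). SCAF4 IP and SCAF8 IP differed by 1.25-fold, their lists overlapped, and the exact permutation p was 0.2. Replicate 1 was sequenced with longer reads than replicates 2 and 3. Without it the log2 difference between IP and inputs was 1.26 (exact permutation p = 0.0286), and within it the shares were 2.01% against 0.930% for SCAF4 and 1.42% against 0.514% for SCAF8.

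**Figure D1:**
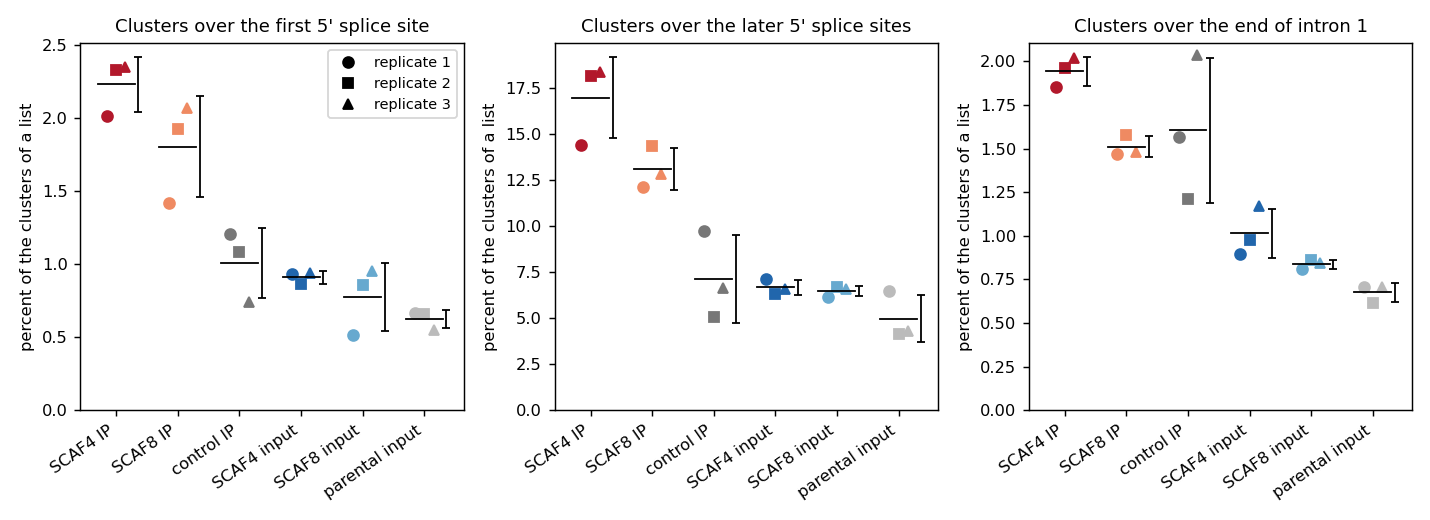
Percent of the clusters of each list that covered the first 5′ splice site (left), later 5′ splice sites of the same isoforms (middle) or the end of intron 1 (right), each axis starting at 0. Points are lists, horizontal lines group means and bars SD over 3 replicates. All 6 SCAF4 and SCAF8 IP lists lie above 1.4% in the left panel and no input reaches 1%.

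Longer clusters cover more boundaries, and member clusters had a median length of 157 to 179 nt in the IP lists and 144 to 162 nt in their inputs. Over all clusters of a list the median was 141 to 155 nt in the IP lists and 137 to 161 nt in their inputs, and these ranges overlapped. With each cluster cut to 41 nt around its midpoint the share was 0.243% ± 0.0705 (SD, n = 6) in the IP lists and 0.0666% ± 0.0464 (SD, n = 6) in the inputs, a log2 difference of 2.25 (exact permutation p = 0.00433). The control IP over its inputs then gave a log2 difference of 0.14 (exact permutation p = 0.7), which rested on 8 control IP clusters, and the other alternative settings gave 0.44 to 0.87 for that comparison. The IP lists also held more clusters in all, 18287 to 54404 against 4793 to 11715, and the part of list size in the shares was not tested.

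Set against genes instead of clusters, nearly the same counts gave a wider gap, which is not separate evidence. The IP lists held a mean of 32056 clusters and 6346 such genes, and their inputs 8356 clusters and 2727 genes. Of the genes with an intron and a cluster in a list, 5.97% to 15.8% in the IP lists had a first 5′ splice site covered, and 1.67% to 2.97% in their inputs. The ratio was 3.80-fold (exact permutation p = 0.00216, adjusted p = 0.00812, n = 6 against 6). A list with more clusters has more chances per gene, and the part of list size in this ratio was not tested.

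Later 5′ splice sites of the same isoforms also took a larger share of the IP lists. There were 155431 later boundaries against 18378 first ones. Clusters over them made up 14.4%, 18.1% and 18.3% of the SCAF4 IP lists and 12.1%, 14.3% and 12.8% of the SCAF8 IP lists. In the inputs of both lines the range was 6.13% to 7.12%, and in the control IP 5.06% to 9.71%. The IP lists stood 2.26-fold over their inputs and 2.16-fold over the control IP at later 5′ splice sites.

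The ratio of clusters over first to clusters over later 5′ splice sites showed no detectable difference. On the log2 scale it was -2.90 ± 0.16 (SD, n = 6) in the IP lists and -2.99 ± 0.30 (SD, n = 6) in the inputs, a difference of 0.09 (exact permutation p = 0.626). Against the control IP the difference was -0.10 (exact permutation p = 0.726), with single control lists between -3.16 and -2.23. A test that misses the threshold does not show that the ratios were equal. With the Ensembl canonical isoform in place of the longest one the difference to the inputs was 0.42 (exact permutation p = 0.026), so the call on first against later sites depended on which isoform set the first exon. With each cluster cut to 41 nt, which left 34 input members, it was 0.83 (exact permutation p = 0.247).

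The end of intron 1 was covered in 1.47% to 2.02% of clusters of the IP lists and in 0.809% to 1.17% of clusters of their inputs, a ratio of 1.86-fold. Clusters over the start of intron 1 outnumbered those over its end in 5 of 6 IP lists. The log2 ratio of start to end was 0.12, 0.25 and 0.22 in SCAF4 IP and -0.05, 0.28 and 0.48 in SCAF8 IP. It was 0.05, -0.18 and -0.32 in SCAF4 inputs and -0.65, 0.00 and 0.18 in SCAF8 inputs. The groups overlapped, and the means differed by 0.37 (exact permutation p = 0.0216, adjusted p = 0.0361, n = 6 against 6). With 10 nt asked for on each side the difference was 0.33 and the exact permutation p 0.167, and with 41 nt per cluster 0.96 and 0.121. In the control IP the ratio was -0.38, -0.16 and -1.46, and its end of intron 1 was covered in 1.21% to 2.04% of clusters, a range that overlapped that of the tagged IP.

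Clusters over the first 5′ splice site lay mainly in exon 1 and reached a short way into intron 1, most often by 2 nt. The median member cluster held 124.5 to 141 nt upstream of the boundary in the IP lists and 121 to 139 nt in their inputs. Its intronic length had a median of 18 to 30 nt in the IP lists, 7 to 21 nt in their inputs and 4 to 16 nt in the control IP. Clusters with only 1 to 3 intron bases were 20.8% ± 2.51 of members in the IP lists, 30.3% ± 3.51 in their inputs (SD, n = 6 each) and 36.7% ± 6.33 in the control IP (SD, n = 3). Clusters with 25 to 49 intron bases were 24.1% ± 2.35 of members in the IP lists and 19.5% ± 4.82 in their inputs (SD, n = 6 each).

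Clusters with 100 or more intron bases were 11.05% ± 2.71 of members in the IP lists and 5.80% ± 2.52 in their inputs (SD, n = 6 each). In inputs of the parental line they were 11.4% ± 4.13, like the IP lists, and in the control IP 6.12% ± 2.17 (SD, n = 3 each). The mean part of a member cluster that lay in intron 1 was 18.03%, 22.3% and 21.7% in SCAF4 IP, 21.1%, 19.8% and 23.8% in SCAF8 IP, and 13.2% to 19.2% in their inputs. The difference was 4.46 percentage points (exact permutation p = 0.00866, adjusted p = 0.0216, n = 6 against 6). Among clusters with at least 10 nt on each side it was 1.00 point (exact permutation p = 0.565), so no difference was detectable among clusters that reached further. Inputs of the parental line had 18.5% to 21.2% in intron 1, within the range of the IP lists.

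**Figure D2:**
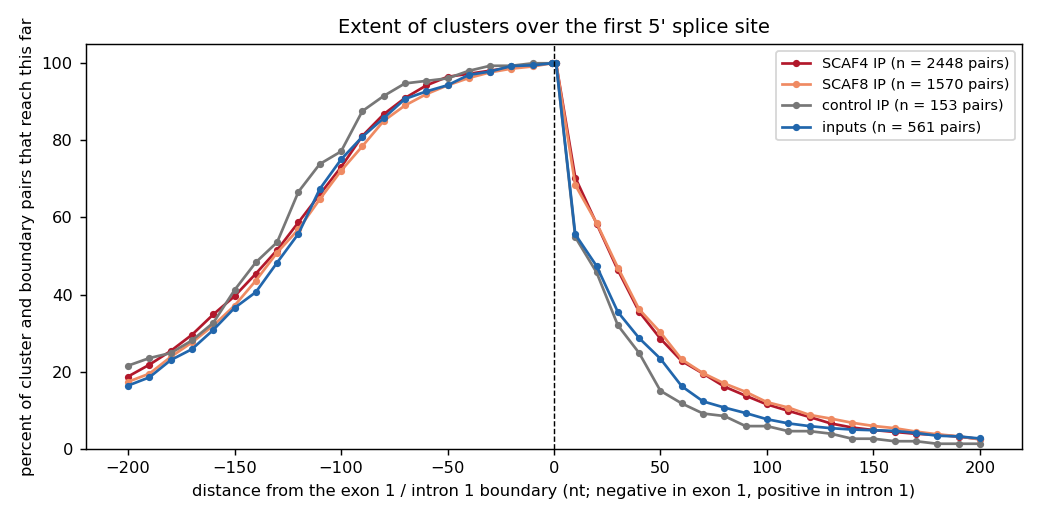
Percent of cluster and boundary pairs (y) that reached at least the given distance (x, in nt) into exon 1 (negative) or intron 1 (positive), pooled over the lists of a group; 1 SCAF8 IP cluster covered 2 boundaries. The SCAF4 IP, SCAF8 IP and input curves are close in exon 1. The control IP, with 153 pairs, is higher in part of it, at 66.7% against 55.8% in the inputs at -120 nt. From 10 to 150 nt into intron 1 the SCAF4 and SCAF8 IP curves lie above the inputs and the control IP, while from 160 nt on the SCAF4 IP and input curves cross.

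**Figure D3:**
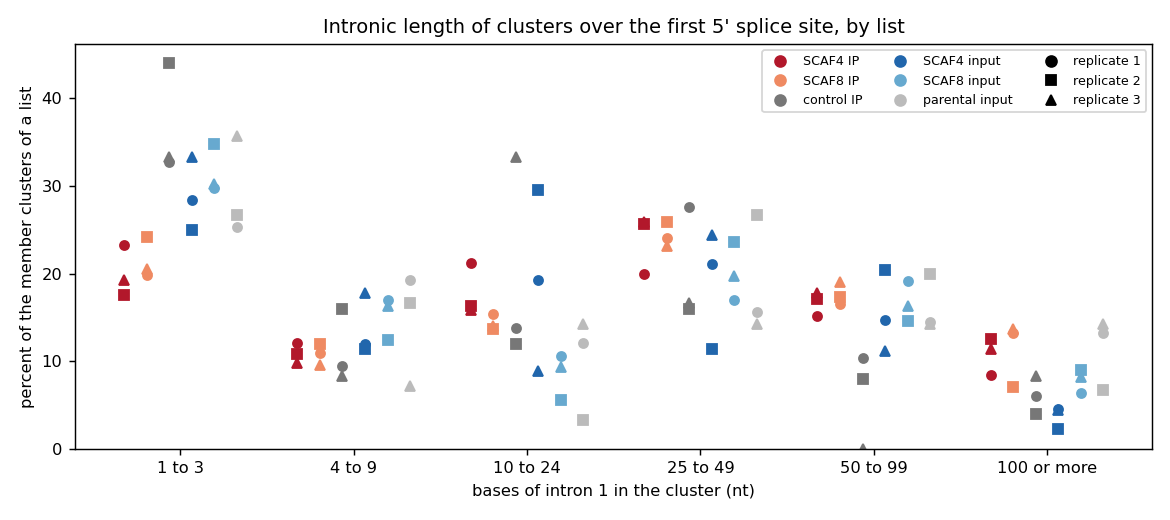
Percent of the member clusters of each list by the number of intron 1 bases they held, in 6 classes of unequal width. Each point is 1 list, its colour the group and its shape the replicate. The class of 1 to 3 nt holds 17.5% to 24.1% of members in the IP lists and 25% to 34.8% in their inputs.

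Bowtie2 aligns reads without splicing, so the last bases of a spliced read can be laid into the intron where they match. Of 363 IP members that ended 2 nt into the intron, 22.0% had those 2 bases equal to the first 2 of exon 2, against 15.9% at sites of IP members with 10 nt or more and 17.4% over all first boundaries. For the 83 input members of that kind the value was 32.5%, against 20.8% at sites of input members with 10 nt or more. With 3 nt it was 8.82% of 238 IP members and 13.5% of 52 input members, against 4.70% over all. With 1 nt it was 44.2% of 197 IP members and 28.1% of 32 input members, against 48.4% over all. The alignment allowed mismatches, so these shares do not count all reads that could be laid out in this way, and their part in the short overhangs was not tested. Counting only clusters with at least 10 nt on each side left 2774 IP members, 232 input members and 84 control IP members. Their shares were 1.37% ± 0.268 (SD, n = 6), 0.465% ± 0.103 (SD, n = 6) and 0.520% ± 0.152 (SD, n = 3), a log2 difference between IP and inputs of 1.57 (exact permutation p = 0.00216).

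Intron 1 began inside an exon of another annotated transcript for 13.9% of all first boundaries. This was so for 21.8% to 26.7% of member clusters in the IP lists, for 26.7% to 51.1% in their inputs and for 30.2% to 48.0% in the control IP. At such sites mature RNA of the other isoform can hold the bases after the boundary. With these boundaries left out, the share was 1.53% ± 0.281 in the IP lists and 0.527% ± 0.148 in their inputs (SD, n = 6 each), a log2 difference of 1.58 (exact permutation p = 0.00216).

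Of the 1766 first 5′ splice sites covered in an IP list, 1478 were covered in no input and no control IP list. The inputs covered 265 sites and 95.5% of them also appeared in an IP list, while 14.3% of the IP sites appeared in an input. Only 12 sites were seen in an input and no IP list. All 6 IP lists shared 78 sites, and 66 of these were also covered in an input or a control IP list. The IP lists held 18287 to 54404 clusters each, the inputs 4567 to 12493 and the control IP lists 1621 to 9638. The part of list size in these counts was not tested, and no such counts were set beside them for later 5′ splice sites.

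A stricter count asked for at least 2 of 3 IP lists and none of the 9 inputs and 3 control IP lists. For SCAF4, 489 first 5′ splice sites passed, which is 2.66% of those tested, against 2.22% of later 5′ splice sites. For SCAF8, 218 passed, which is 1.19%, against 0.865% of later ones. Against later sites, the share of first sites was thus higher by less than 1 percentage point for either protein. Of the SCAF8 sites 64.7% were in the SCAF4 set, and of the SCAF4 sites 28.8% were in the SCAF8 set. With all 3 lists required, 100 sites remained for SCAF4 and 39 for SCAF8. Without replicate 2 and with both others required, the counts were 129 for SCAF4 and 115 for SCAF8, and without replicate 3 they were 160 and 56.

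The 566 sites that passed for SCAF4 or SCAF8 lay in coding sequence in 62.5% of cases, in the 5′ untranslated region in 17.5% and in a non-coding isoform in 19.8%. Over all first boundaries these shares were 49.5%, 35.8% and 14.1%. The low share of the 5′ untranslated region was not particular to the IP. Of member clusters it took a mean of 18.4% in the IP lists, 13.3% in their inputs and 8.71% in the control IP. Coding sequence took 57.8%, 47.3% and 49.3%. The intron 1 of the 566 sites had a median length of 3700.5 nt and their exon 1 of 274.5 nt, against 3182.5 and 220 nt over all first boundaries. The 566 sites leave out any that an input or control IP list covered. Without that filter, the 1003 sites covered in 2 or more IP lists had medians of 2819 and 281 nt, so their intron 1 was not longer. The 119 sites covered in 2 or more inputs had 1459 and 296 nt. A longer exon 1 leaves more room for a cluster upstream of the boundary, and its part in these shares was not tested.

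The 5′ splice site itself was described by a score, the summed log2 odds of the 3 exon and 6 intron bases against the base composition around first 5′ splice sites. The mean over covered sites was 7.75, 7.89 and 7.82 in SCAF4 IP and 7.84, 7.76 and 7.72 in SCAF8 IP. It was 7.60, 7.51 and 7.60 in SCAF4 inputs and 7.69, 7.50 and 7.40 in SCAF8 inputs, below every IP list. The difference was 0.25 (exact permutation p = 0.00216, adjusted p = 0.00433 over 4 properties, n = 6 against 6). Inputs of the parental line had 7.83 to 7.94 and did not share the low values of the other inputs. Among clusters with at least 10 nt on each side the difference was 0.23 (exact permutation p = 0.21), and without introns that begin in another exon 0.15 (exact permutation p = 0.0584), so the call was lost under both, while with at least 20 nt it was 0.42 (exact permutation p = 0.0152). The mean over all first boundaries was 8.08, above every IP list and every input.

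An intron began with GT at 98.9% of all first boundaries and at 99.003% of the 1003 covered in 2 or more IP lists. The stretch GGTAAG, counted from the last exon base, stood at 18.5% of all first boundaries, at 14.7% of those covered in 2 or more IP lists and at 11.8% of the 119 covered in 2 or more inputs. GGTGAG stood at 29.7%, 30.2% and 29.4%. Both motifs were read at the boundary on the gene's strand only. Among the sequences shown above, ATF2, MCM5, TUBA1B and ZNF551 held GGTGAG across the boundary and NOP14 held GGTAAG.

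The GC content of 50 nt on each side of covered boundaries was 60.6%, 60.8% and 60.7% in SCAF4 IP, 58.2%, 59.7% and 60.9% in SCAF8 IP and 55.6% to 58.4% in their inputs. The difference was 2.84 percentage points (exact permutation p = 0.00433, adjusted p = 0.00577 over 4 properties), and SCAF8 IP replicate 1 lay within the range of the inputs. First boundaries of all genes with a cluster had 63.3% to 63.9% in every list, so sites that were covered had less GC than those of the genes at hand. With each cluster cut to 41 nt, which left 34 input members, the GC difference was 4.38 points and the call was lost (exact permutation p = 0.0952).

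Introns whose start was covered were longer in the IP lists. The geometric mean length of intron 1 was 2772, 2791 and 2992 nt in SCAF4 IP and 2642, 2628 and 2961 nt in SCAF8 IP. It was 1880, 1546 and 1807 nt in SCAF4 inputs and 1086, 1712 and 1532 nt in SCAF8 inputs, and the groups did not overlap. The ratio was 1.78-fold (log2 difference 0.83, exact permutation p = 0.00216, adjusted p = 0.00433 over 4 properties). With each cluster cut to 41 nt the log2 difference was 0.85 and the call was lost (exact permutation p = 0.273). The 3 control IP lists had 2280, 891 and 647 nt, and held 9638, 2314 and 1621 clusters. The part of list size in the 4 properties was not tested. Intron 1 of all genes with a cluster had 2744 to 3887 nt in these 12 lists, so the covered introns were shorter than those at hand in each of the IP lists and inputs.

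Exon 1 was shorter in the IP lists, at 306 to 362 nt against 326 to 486 nt in the inputs (0.799-fold, log2 difference -0.32, exact permutation p = 0.0108, adjusted p = 0.0108 over 4 properties), and the groups overlapped. With the Ensembl canonical isoform the log2 difference was 0.12 (exact permutation p = 0.223), so its direction depended on the isoform, and at 41 nt per cluster it was -0.42 (exact permutation p = 0.433). Measured relative to all genes with a cluster in the same list, an alternative added after the data were seen, the differences were 0.26 for the score, 2.68 percentage points for GC, -0.32 for exon 1 and 0.74 for intron 1 on the log2 scale (highest exact permutation p = 0.00649).

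**Figure D4:**
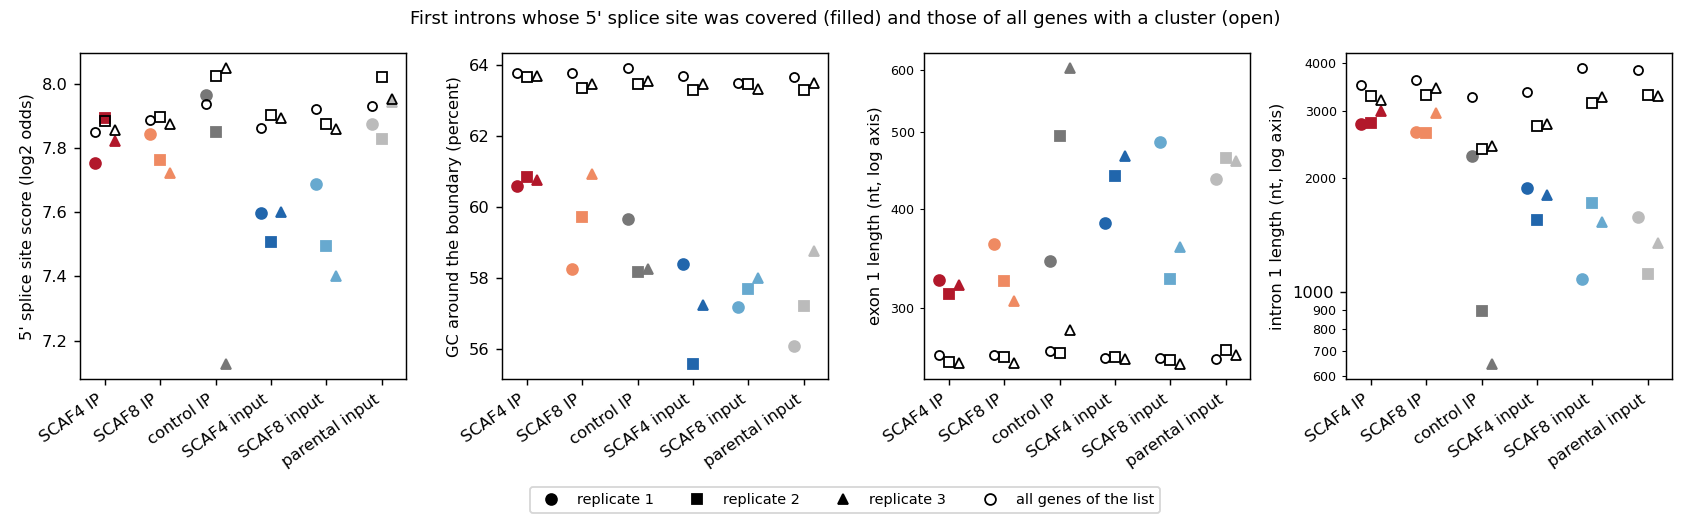
Means over the first 5′ splice sites covered in each list (filled points) of the 5′ splice site score, the GC content around the boundary and the lengths of exon 1 and intron 1 (geometric means on log axes). Open points give the same over all genes with a cluster in that list. Intron 1 of covered sites is at 2628 nt or more in the 6 SCAF4 and SCAF8 IP lists and at 1880 nt or less in all 9 inputs.

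At ATF2 the clusters lay alike in both proteins. They reached 51, 63 and 51 nt into intron 1 in SCAF4 IP and 51, 51 and 92 nt in SCAF8 IP, with 80 to 102 nt in exon 1. At MCM5 they reached 43, 29 and 30 nt in SCAF4 IP and 31, 25 and 51 nt in SCAF8 IP. DHX15 had 13, 13 and 25 nt in SCAF4 IP and 9, 27 and 25 nt in SCAF8 IP. At ATF2, 4 of the 6 lists thus ended the cluster at the same base, while the ends at MCM5 and DHX15 varied more.

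ATP5F1C had 37, 44 and 37 nt of intron 1 in SCAF4 IP and 30, 36 and 46 nt in SCAF8 IP. Its exon 1 has 87 nt and the SCAF8 IP replicate 3 cluster, with 103 nt upstream of the boundary, reached past its start. MARCHF7, a RING-type ubiquitin ligase, had 45, 81 and 45 nt in SCAF4 IP and 46, 45 and 133 nt in SCAF8 IP. Its intron starts inside an exon of another transcript, as do those of ZNF224, NUP155 and ARL6IP1/ENSG00000260342.

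CWF19L2 had only short overhangs. Its clusters ended 2, 3 and 3 nt into the intron in SCAF4 IP and 2, 3 and 2 nt in SCAF8 IP. SLC35D1, a nucleotide sugar transporter, had 29, 4 and 18 nt in SCAF4 IP and 8, 7 and 1 nt in SCAF8 IP. RBM14/RBM14-RBM4, an RNA-binding protein gene and its read-through, had 120, 18 and 164 nt in SCAF4 IP and 17, 30 and 32 nt in SCAF8 IP, so replicates stopped at different places. ZNF224, a zinc finger repressor, had 116, 132 and 375 nt in SCAF4 IP and 322, 25 and 18 nt in SCAF8 IP. NUP155 had 49, 142 and 2 nt in SCAF4 IP and 51, 20 and 19 nt in SCAF8 IP. ARL6IP1/ENSG00000260342 had 16, 22 and 68 nt in SCAF4 IP and 59, 69 and 44 nt in SCAF8 IP. In all, 12 sites were covered in 6 IP lists and in no input or control IP list. Of them 7 lay in coding sequence, 3 in the 5′ untranslated region and 2, MCM5 and DHX15, in a non-coding isoform.

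The sites seen most often in the inputs were described in the same way. HNRNPH1, DDX39B and TUBA1B were covered in all 9 inputs, and RACK1, RPL41, HNRNPH3 and CKS2 in 8. All 8 sites of this kind, with ENSG00000282988 in 7 inputs, were also covered in all 6 IP lists. The intron began inside an exon of another transcript for 6 of the 8, and for 5 the isoform is annotated as non-coding, so that its first exon need not be the first exon of the mRNA. HNRNPH1 is such a case, with an exon 1 of 1888 nt and an intron of 84 nt, and its IP clusters spanned 360 to 383 nt past the boundary, that is, the whole intron.

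CKS2 has a coding boundary that lies in no other exon. In 3 of 3 SCAF4 IP lists its clusters reached 31, 27 and 35 nt into intron 1, and in SCAF8 IP 31, 26 and 30 nt. In the 8 inputs they reached 2 to 20 nt, with a median of 2.5 nt. The IP and input clusters of CKS2 therefore did not overlap in intronic length, at a site chosen for its cover in the inputs. TUBA1B had 11, 49 and 27 nt in SCAF4 IP, 12, 4 and 4 nt in SCAF8 IP and 4 to 29 nt in the inputs, with 4 nt the median there. RPL41, a ribosomal protein, had 56 to 96 nt in the IP lists and 40 to 65 nt in the inputs.

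Sites with 1 protein alone were few. Of 18378 first 5′ splice sites, SCAF4 had 15 in its 3 lists and in no other list, and SCAF8 had 2. No count by this rule was made at later 5′ splice sites. NOP14 had 14, 413 and 12 nt of intron 1 and YARS1 had 69, 43 and 62 nt. PHGDH, an enzyme of serine synthesis, had 3, 2 and 3 nt, NUDCD3 had 4, 2 and 3 nt and C1orf52 had 4, 2 and 1 nt. The isoforms used for PHGDH and C1orf52 are annotated as non-coding. CDKL3 had 89, 85 and 95 nt in the 3 SCAF8 lists and ENSG00000269026/ZNF551 had 8, 10 and 41 nt. The lists differ in size, and whether these sites differ between the proteins was not tested.

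Gene groups were counted by how many of their first 5′ splice sites were covered in at least 2 of 6 IP lists, against 5.46% of all first boundaries, and in at least 2 of 9 inputs, against 0.648% of all. RNA levels were not measured here and the counts are not adjusted for them, so they describe the groups and were given no test. For some genes named below, RPL35, SRSF5, EIF3B, CCNL1 and DNAJC11 among them, the isoform used is annotated as non-coding. Of the 10 SR splicing factors, which bind exonic enhancers, 6 were covered in the IP and 1 in the inputs. SRSF1, which shares its boundary with ENSG00000266086, was covered in all 6 IP lists, in 1 control IP list and in 3 inputs, with 37 to 327 nt of intron 1 in the IP. SRSF5 was covered in 5 IP lists and in no input, with 10 to 138 nt.

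Of 80 ribosomal protein sites 31 were covered in the IP and 5 in the inputs, and 16 of the 31 were seen in no input or control IP list. RPL35 was covered in all 6 IP lists with 69 to 200 nt of intron 1, and in 1 input with 3 nt. Of 33 genes of snRNP and SF3 or PRPF spliceosome proteins 12 were covered in the IP and 2 in the inputs. SNRPA, a protein of the U1 particle that binds 5′ splice sites, was covered in all 6 IP lists and 2 inputs, with 6 to 98 nt of intron 1 in the IP and 14 and 15 nt in the inputs. SNRPD1, an Sm core protein, was covered in all 6 IP lists and 3 inputs. Of 23 hnRNP genes 8 were covered in the IP and 5 in the inputs, the highest input share of any group.

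Of 52 DEAD and DEAH box helicases 16 were covered in the IP and 2 in the inputs, and of 54 translation initiation factors 13 and 3. DDX46, a helicase of the U2 particle, was covered in all 6 IP lists and 2 inputs, mostly with 2 nt of intron. EIF2S3, a subunit of the factor that brings the initiator tRNA, was covered in all 6 IP lists and 3 inputs, with 1 to 65 nt in the IP and 3 or 4 nt in the inputs. EIF3B, of the factor that recruits the small ribosomal subunit, was covered in 5 IP lists with 92 to 197 nt and in 3 inputs with 5 to 48 nt. Of 23 nucleoporins 6 were covered in the IP and none in the inputs, and of 34 CHD and SWI/SNF remodelers likewise 6 and none. NUP43 was covered in 5 IP lists with 24 to 45 nt of intron 1. The remodeler CHD2 was covered in 5 IP lists with 3 to 14 nt and SMARCC1, a core SWI/SNF subunit, in 3 lists with 1 to 46 nt.

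Of 15 RNA polymerase II subunits 2 were covered in the IP, POLR2J3 in 4 lists and POLR2C in 2, of 16 Integrator subunits 2, of 28 Mediator subunits 3 and of 48 cyclins and cyclin-dependent kinases 5, and none of them in 2 inputs. These shares lay between 10.4% and 13.3%, against 5.46% of all first boundaries, but each rested on 2 to 5 genes and was not tested. INTS2 and INTS7, subunits of the complex that cleaves transcripts near promoters, were each covered in all 6 IP lists and in 1 input. The Mediator genes MED13 and MED13L were each covered in 4 IP lists and no input, with a median of 2 and 3 nt of intron. CCNC, the cyclin of the Mediator kinase module, was covered in 4 IP lists with 35 to 123 nt of intron 1, and cyclin L1 (CCNL1) in 4 with 8 to 57 nt.

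Of 51 USP deubiquitinases 5 were covered in the IP, of 37 kinesins 4 and of 37 proteasome genes 3, and none in 2 inputs. USP48 and USP9X were each covered in 5 IP lists, and USP9X also in 1 input and 1 control IP list. PSMD8, of the 19S regulatory particle, was covered in 4 IP lists and in 2 of the 3 control IP lists, and PSMD12 of the same particle in 2 IP lists with 46 to 123 nt. The motor heavy chain KIF5B was covered in 5 IP lists with 4 to 87 nt. The kinesin KIF18B was covered in 5 IP lists although its exon 1 has only 10 nt, and its clusters began 82 to 114 nt upstream of the boundary, beyond the annotated start. Of 496 ZNF genes 39 (7.86%) were covered in the IP and 4 in the inputs, of 364 SLC transporters 11 (3.02%) and 2, and of 63 heat shock and DNAJ chaperones 2 (3.17%) and none. ZNF207, a mitotic spindle protein, was covered in all 6 IP lists with 3 to 288 nt of intron 1, in 1 control IP list and in 2 inputs with 3 and 15 nt. The chaperone gene DNAJC11 was covered in 3 IP lists with 14 to 83 nt and DNAJC25/DNAJC25-GNG10 in 2 with 108 and 130 nt. SLC38A2, an amino acid transporter, was covered in all 6 IP lists and in 6 of 9 inputs, with 2 to 11 nt of intron 1 in the IP and 3 to 7 nt in the inputs. The SLC and chaperone shares were below the 5.46% of all first boundaries, and the chaperone share rested on 2 genes.

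**Figure D5:**
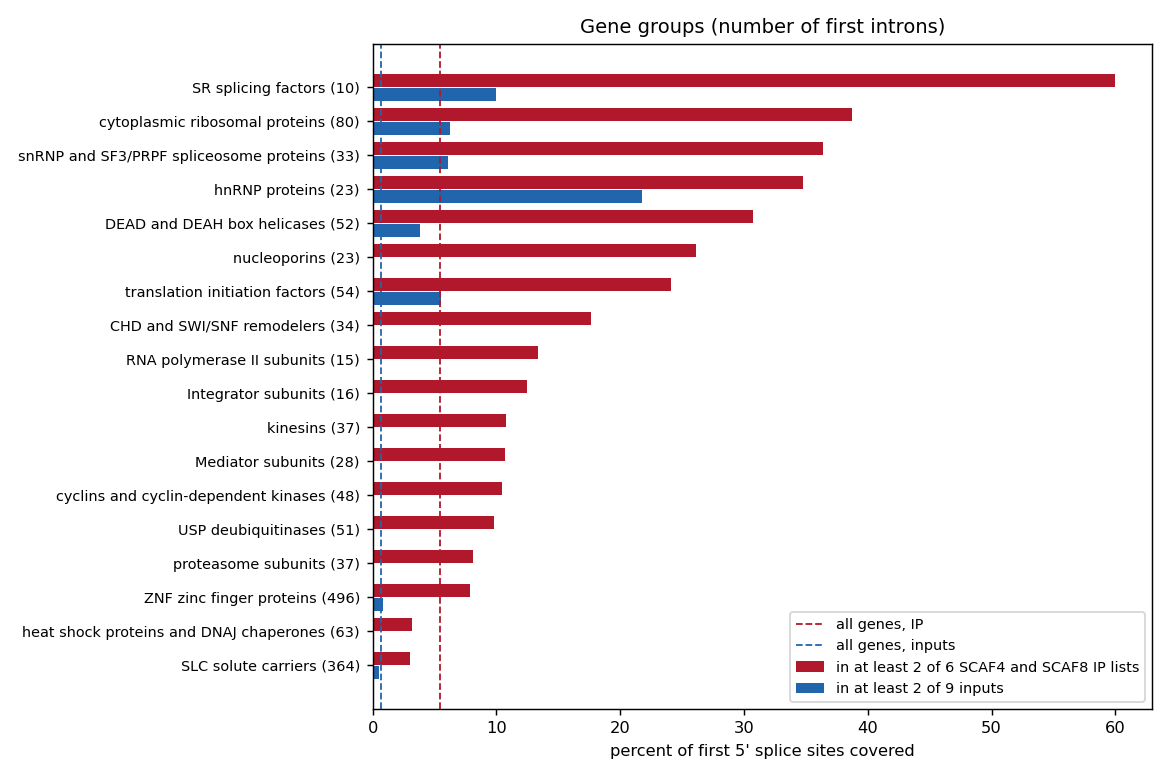
Percent of the first 5′ splice sites of each gene group that were covered in at least 2 of 6 SCAF4 and SCAF8 IP lists (red) or in at least 2 of 9 inputs (blue), with the number of sites in parentheses and dashed lines at the shares of all first boundaries, 5.46% and 0.648%. SR splicing factors are at 60% in the IP with 10 sites, and SLC transporters at 3.02% with 364.

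The first 5′ splice sites of SCAF4, SCAF8, USP15 and ZC3HAV1 were covered in none of the 18 lists, and that of DNAJC12 in 1, SCAF8 IP replicate 1. Clusters over the first 5′ splice site were not set apart by their score within a list. Their mean percentile of the deposited score was 49.7 to 53.5 in the IP lists and 46.8 to 56.6 in their inputs, near the middle of all clusters.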

How the data were processed

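PAR-CLIP libraries were trimmed with Trim Galore and cutadapt, aligned to GRCh38 with Bowtie2 2.2.9 and stripped of duplicates with Picard, after base calling with bcl2fastq 1.8, per the submitters' processing notes. The authors merged soluble and chromatin reads of a replicate and called clusters with PARalyzer, with minimums of reads and T-to-C positions per cluster. Each deposited list gives positions, strand and a score (0.501 to 1) that the sources used here do not define, and it was used only for ranks within a list. The IP lists still hold clusters that overlap inputs.

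Start positions were read as counted from 1. Distances of cluster ends to 5′ splice sites then differed between strands by 6.33%, against 14.7% when counted from 0. No 2 lists shared more than 0.740% identical clusters. Shares, ratios and properties were computed per list with Python 3.11.15, pandas 2.3.3 and numpy 2.4.6, with GENCODE 44, and lists, not clusters, were the replicates. Tests were exact two-sided permutations of list labels at a threshold of 0.05, checked on simulated lists. Exact binomial intervals had 95% confidence. Each input was taken from the extract of the IP with the same number, which pairs them. Over covered sites the deviations of same-numbered lists correlated at -0.0262 to 0.134 (6 pairs), and of others at -0.108 to 0.0780 (12 pairs).

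The genes named were the 12 covered in most IP lists and in no input or control IP list, the 8 covered in most inputs, up to 5 seen with each protein alone, ties by summed cluster length, and the 2 covered in most IP lists of each of 18 gene groups. DNAJC12, USP15, ZC3HAV1, SCAF4 and SCAF8 were looked up besides. One gene that the rule picked is not reported here. The members, gene groups and tests were chosen with earlier results of these data known.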

Additional observations from a re-analysis of the deposited data

Results flagged for a closer look

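SCAF8 input replicate 1 stood apart from the other 5 inputs of the FLAG lines in 3 measures, by a gap test at 95% that chance passes in about 1 of 20 groups. Its log2 share of clusters over the first 5′ splice site was -7.60, its log2 ratio of first to later 5′ splice sites -3.58 and its mean log2 length of intron 1 10.09. Without it the log2 difference of shares between IP and inputs was 1.13 and the difference of first to later ratios -0.0245.

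The intronic part of member clusters was higher in the IP than in the input of the same number in all 3 SCAF4 and all 3 SCAF8 pairs and lower in all 3 control pairs. The mean differences were apart by 10.4 percentage points between SCAF4 and control and by 8.73 between SCAF8 and control. The log2 ratio of clusters over the start to clusters over the end of intron 1 moved in the same opposite ways, apart by 0.90 for SCAF4 and 0.95 for SCAF8. These differences between lines were not tested, and control IP replicates 2 and 3 held 25 and 12 member clusters.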

How the results depend on the processing

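The shares of clusters and of genes kept their direction and their side of the threshold under every alternative other than leaving out replicates, with log2 differences of 1.20 to 2.25 for IP over inputs, 0.87 to 1.83 over the control IP and 1.88 to 2.90 for genes. The paired fit with the replicate number as a block gave the same differences (1.27 for the share, exact sign flips p = 0.0313, the smallest for 6 pairs) and changed no call by unadjusted p. The paired p values were not adjusted for the number of tests. With 41 nt per cluster few members were left, and the intronic part became -9.69 points and the score difference -0.0074. GC (4.38 points, p = 0.0952 by exact permutation), exon 1 (-0.42, 0.433), intron 1 (0.85, 0.273) and start to end (0.96, 0.121) lost their calls in that setting. First to later was then 0.83 against inputs (exact permutation p = 0.247) and 0.18 against the control, and the recurrent counts were 45 and 14 for SCAF4 and SCAF8. With 10 nt on each side start to end was 0.33, the intronic part 1.00 and the score 0.23, and with 20 nt they were 0.31, 1.02 and 0.42, the last past the threshold again (exact permutation p = 0.0152), first to later against inputs was -0.0190 and the recurrent counts 253 and 114. The canonical isoform gave first to later differences of 0.42 and 0.36 and an exon 1 difference of 0.12. Introns that begin in no other exon gave a score difference of 0.15. Clusters at or above the median score gave 0.12 for the score, 0.12 for first to later against the control and counts of 203 and 90. Requiring 3 of 3 lists gave 100 and 39. The causes were not tested.

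Leaving out 1 list or 1 replicate number gave 1.13 to 1.37 for IP over inputs, 0.73 to 1.27 over the control IP (highest p 0.0667 by exact permutation, where 4 against 2 lists allow no lower), 1.22 to 1.38 for SCAF4, 0.98 to 1.42 for SCAF8, 0.52 to 0.87 for the control IP over its inputs, 0.16 to 0.43 for SCAF4 over SCAF8 IP, -0.0245 to 0.143 for first to later against inputs, -0.33 to 0.20 against the control, 0.27 to 0.44 for start to end, 1.78 to 2.13 for genes, 3.42 to 5.11 points for the intronic part, 0.21 to 0.30 for the score, 2.43 to 3.44 points for GC, -0.39 to -0.27 for exon 1 and 0.73 to 0.88 for intron 1. The recurrent counts ranged from 129 to 477 and from 56 to 167, lowest without replicate 2 for SCAF4 and without replicate 3 for SCAF8. Without SCAF8 IP replicate 3, or without replicate 2 or 3, start to end lost its call (0.32, 0.38 and 0.35). Without replicate 2 or 3 so did the intronic part, GC and exon 1, each at an exact permutation p of 0.0571 with 4 against 4 lists. First to later turned without replicate 1 or SCAF8 input replicate 1 against inputs, and without replicate 2 or control IP replicate 2 against the control.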
